A study of Mus musculus with 6 samples.

Results

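The 39 genes described here encode the intracellular chain that runs from Toll-like and TNF receptors to the transcription factor NF-kB, with the inhibitors that act back on it. They were picked by gene name for their known place in the pathway, and the rule uses no measured value. Earlier results of these data were known when they were chosen. All 39 were found among the 54532 genes of the deposited table, and all 39 passed the filter on low values (1 FPKM or more on average over all libraries). They were arranged in 7 layers: 4 adaptors, 4 IRAK kinases, 8 TRAF, RIP kinase and cIAP genes, 9 TAK1, IKK and related kinases, 5 Rel proteins, 6 IkB proteins and 3 ubiquitin-editing feedback genes.

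NF-kB proteins wait in the cytoplasm of resting macrophages, bound to IkB inhibitors. When LPS engages its receptor, adaptors recruit IRAK kinases, TRAF ubiquitin ligases activate the kinase TAK1, and TAK1 switches on the IKK complex, which marks IkB for destruction and frees the Rel dimers to enter the nucleus. Many of their targets are parts of the same chain, among them IkB-alpha (Nfkbia), the ubiquitin-editing enzyme A20 (Tnfaip3) and the inactive kinase IRAK-M (Irak3), which limit the response. The steps of this chain are largely controlled on the protein, by phosphorylation, ubiquitin and location, and an RNA level does not measure pathway activity.

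The macrophages were grown from mouse bone marrow, and RNA-seq gave 6 libraries: 3 labelled NSUN2-KO, after the RNA methyltransferase NSUN2, and 3 labelled NC. The comparison was NSUN2-KO against NC. Every library came from cells polarized to the inflammatory M1 state with LPS and IFN-γ, so both groups carried the stimulus and no unstimulated cells were analysed here. What NC stands for, how the knockout was made, the strain, age and sex of the mice, the length of stimulation and the animal behind each library are not stated in the labels. The replicates are described as biological, and p-values measure the spread between these libraries.

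The libraries held 35019033 to 45636131 reads assigned to genes. Nsun2 itself stood at 1.92 ± 0.11 FPKM in NC and 1.06 ± 0.26 in NSUN2-KO (mean ± SD, n = 3 each, as for every group mean here), and the groups did not overlap. Its log2 fold change was -0.51 (adjusted p = 0.0228 by the limma test described below). The Nsun2 call was lost with no filter on low values (adjusted p = 0.113). It was also lost when any library other than NSUN2-KO replicate 2 was left out (0.0532 to 0.0848). All 10 macrophage markers were tested and stood at a mean of 61.6 FPKM or more in NC. Their summed level was 4260 to 4362 FPKM in NC and 3664 to 3710 in NSUN2-KO, with Cd14 higher and Cd68, Fcgr1, Lyz2 and Spi1 lower. Lyz2 alone, the most abundant of them, went from 1736 ± 31 to 1163 ± 47 FPKM. Of the 10 markers, 4 had a positive and 6 a negative log2 fold change. In bulk RNA, fewer cells of a type and less RNA per cell cannot be told apart. Of 12 neutrophil markers 6 were tested (Lcn2 higher, and S100a9, Csf3r and Mmp8 lower), Elane and Retnlg were at 0 in every library, and the sums were 179 to 185 FPKM in NC and 168 to 180 in NSUN2-KO. Of 10 dendritic cell markers 3 were tested (Ccr7 higher), with sums of 6.89 to 8.32 against 10.04 to 11.38 FPKM. The part of these cell types in the results below was not tested. The summed markers of T and NK cells, B cells, and mast cells and basophils stayed at or below 0.666 FPKM in every library, with Cd3e, Cd3g, Mcpt4, Tpsb2, Cma1 and Mcpt8 at 0, and the fibroblast sums were 1.45 to 1.61 in NC and 0.713 to 0.892 in NSUN2-KO. The Y-linked Ddx3y, Eif2s3y, Uty and Kdm5d were present in each NC library and at 0 in each NSUN2-KO library, and Xist averaged 14.5 FPKM in NC and 30.6 in NSUN2-KO. Each NC library thus held both Y-linked RNA and Xist (15.5, 14.0 and 14.0 FPKM in replicates 1 to 3). Sex and genotype therefore cannot be told apart in any comparison here. Whether the NC libraries mixed cells of both sexes was not tested.

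Most of the chain differed little between the groups. Of the 39 genes, 2 rose in NSUN2-KO (Irak3 and Nfkbiz) and 1 fell (Nfkbie), by limma on log2(FPKM + 1) with Benjamini-Hochberg adjusted p below 0.05 over all 9443 genes tested. That is 7.69% of the members, beside 8.49% of all genes tested, with 4.19% higher and 4.3% lower. Their median log2 fold change was 0.02, against -0.0056 over all genes tested, and their median absolute change was 0.08 on the log2 scale, equal at this precision to the 0.08 of all genes. None of the 21 genes of the adaptor, TRAF and kinase layers outside the IRAK family was among them, nor any of the 5 Rel proteins or of the 3 ubiquitin-editing genes. At an unadjusted p below 0.05 by limma, 10 members were higher and 5 lower, beside 1116 higher and 1293 lower of all 9443 genes tested. Over the whole table the number of changed genes fell from 802 to 338 and 287 when NC replicates 2 and 3 were left out in turn, and to 270 and 447 when NSUN2-KO replicates 1 and 2 were.

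The group mean in NSUN2-KO lay between 84.8% (Irak4) and 119% (Ripk2) of that in NC. The log2 fold changes ran from -0.22 to 0.25, with 20 positive and 19 negative. Values of the groups did not overlap for 16 members (41%), 11 of them higher and 5 lower in NSUN2-KO, beside 31.1% of all genes tested (14.4% higher, 16.7% lower). For the 36 genes that did not pass the test, the 95% intervals of the log2 fold change ran from -0.36 (Irak4) to 0.40 (Ripk2), and 21 of them lay wholly within 0.2 of 0 on either side. Those intervals limit the size of a difference and do not show that the groups were alike.

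**Figure D1:**
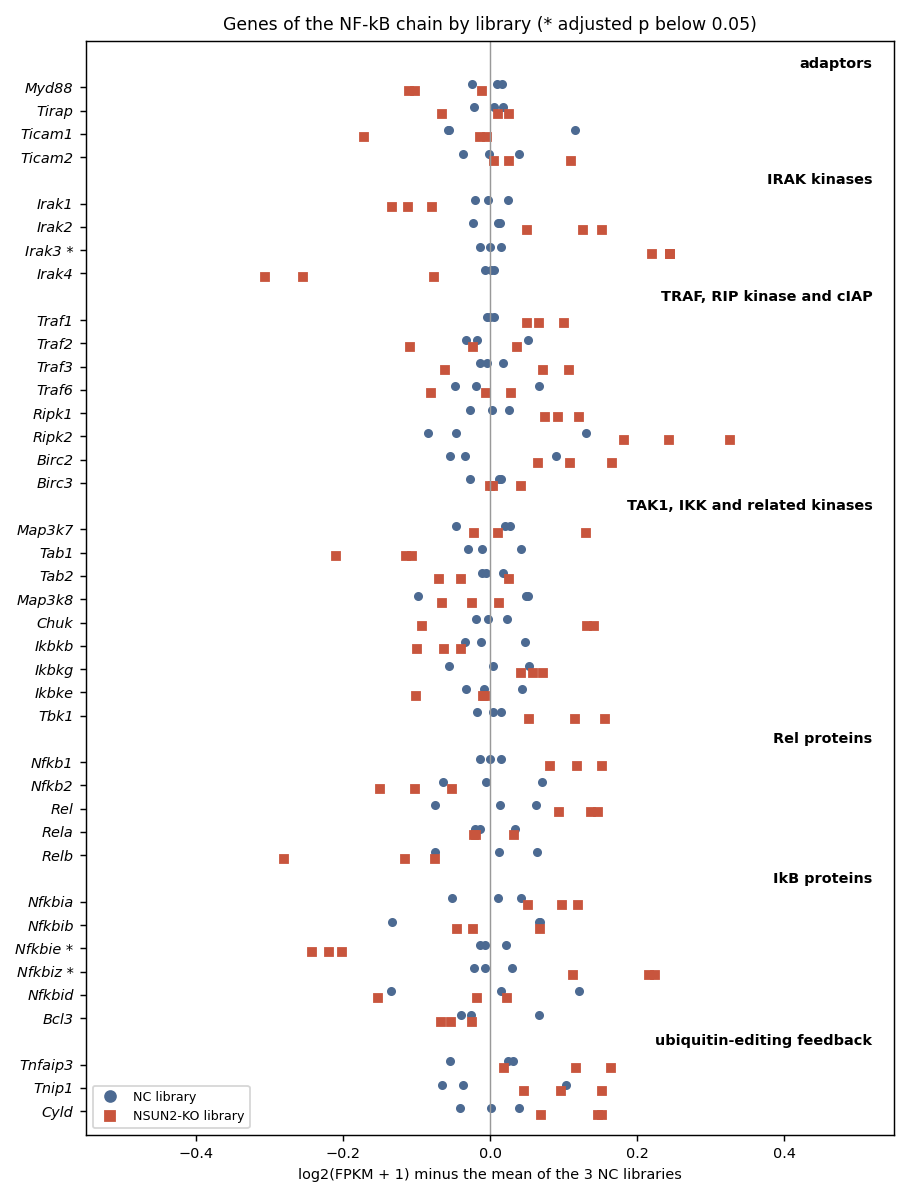
Each point is one library (circles NC, squares NSUN2-KO), and the horizontal axis gives log2(FPKM + 1) minus the mean of the 3 NC libraries for that gene, with the 39 genes in rows by layer. Irak3 and Nfkbiz lie to the right and Nfkbie to the left of their NC libraries, and most other genes stay within 0.2 of 0.

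The levels themselves spanned a wide range. In NC the chain ran from 3.54 FPKM for Tab1, a binding partner of TAK1, to 175 FPKM for Nfkbia. FPKM is a level per annotated length (1610 bases for Nfkbia and 19078 for Ikbkb), so genes can be set side by side only roughly. The 5 genes above 50 FPKM in NC were Nfkbia, Tbk1, Tnip1, Myd88 and Rela, and 14 genes lay below 10 FPKM. Each member was backed by 369 to 13286 reads in a library. Besides Irak3 and Irak4, described below, several members overlap an annotated gene on the opposite strand: Ikbkg overlaps G6pdx (117 FPKM in NC), Ripk1 overlaps Serpinb6a (35.0), Tirap overlaps Srpr (48.0), Nfkbib overlaps Sirt2 (27.2) and Myd88 overlaps Acaa1a (19.99). Ticam2 overlaps Tmed7 (19.6 FPKM) on the same strand. How reads in the shared stretches were assigned is not stated, so the values of these members may hold reads of the partner.

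The adaptors carry the signal from the receptor tails. Myd88, used by most Toll-like receptors and by the IL-1 receptor, stood at 51.7, 51.5 and 50.2 FPKM in NC replicates 1 to 3 and at 47.3, 50.7 and 47.6 in NSUN2-KO. The NSUN2-KO values were the lower ones in 2 of the 3 libraries, and the remaining one lay within the NC range. Its log2 fold change was -0.08 ± 0.04 (SE; adjusted p = 0.255), which made it the adaptor with the smallest p and the highest level. Tirap, which brings MyD88 to the membrane, and the TRIF-arm adaptors Ticam1 (TRIF) and Ticam2 (TRAM) had log2 fold changes of -0.01, -0.06 and 0.05. In all 4 adaptors the groups overlapped, and limma and voom called 0 of them (0 also at an unadjusted p below 0.05).

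The IRAK kinases act just below MyD88. IRAK4 is the first kinase to join the receptor complex, IRAK1 and IRAK2 pass the signal to TRAF6, and IRAK-M, the product of Irak3, lacks kinase activity and restrains the pathway in macrophages. All 4 genes had groups that did not overlap, Irak2 and Irak3 higher and Irak1 and Irak4 lower in NSUN2-KO. Groups did not overlap for 31.1% of all genes tested (14.4% higher, 16.7% lower). Of the 4, Irak3 alone passed the test.

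Irak3 (chr10:120141648-120202130, minus strand, GRCm38) stood at 22.7, 23.2 and 23.0 FPKM in NC and at 27.4, 26.9 and 27.4 in NSUN2-KO. Every NSUN2-KO library was above every NC library, and the replicates lay close together. The means were 23.0 ± 0.24 and 27.2 ± 0.28 FPKM, a log2 fold change of 0.24 ± 0.03 (SE, adjusted p = 0.00576). It was called under each of 18 alternative settings, with adjusted p from 0.000754 to 0.0392. The annotated gene overlaps Tmbim4 on the opposite strand at its start, at 50.6 FPKM in NC and 51.7 in NSUN2-KO, and whether counting used strand is not given in the sources.

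Irak4 stood at 7.72, 7.79 and 7.77 FPKM in NC and at 7.31, 6.08 and 6.34 in NSUN2-KO. The NC libraries lay within a narrow band, and the first NSUN2-KO library was nearer to them than the others. The log2 fold change was -0.21 ± 0.06 (SE, adjusted p = 0.0848). Without NSUN2-KO replicate 1 it was called (adjusted p = 0.0419), as it was by voom on the recovered reads (adjusted p = 0.0243). Irak4 overlaps Twf1 on the opposite strand.

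Irak2, the most abundant of the 4, stood at 32.7, 32.7 and 31.9 FPKM in NC and at 36.2, 33.6 and 35.5 in NSUN2-KO. Its log2 fold change was 0.11 ± 0.04 (SE, adjusted p = 0.119). Irak1 lies on the X chromosome, and its mean was 7.78 ± 0.14 FPKM in NC and 7.14 ± 0.16 in NSUN2-KO (log2 fold change -0.11, adjusted p = 0.159).

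**Figure D2:**
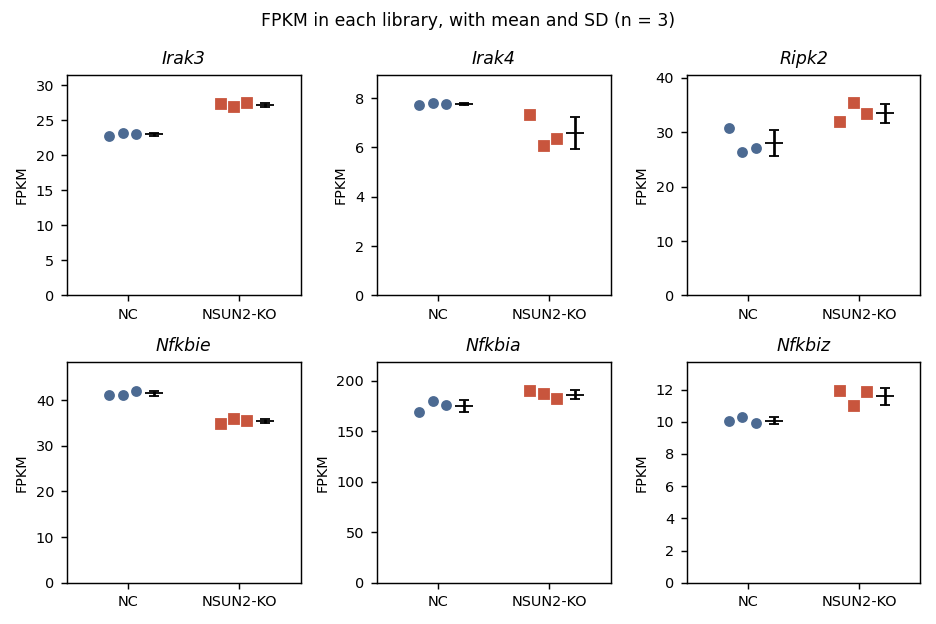
FPKM in each library for Irak3, Irak4, Ripk2, Nfkbie, Nfkbia and Nfkbiz (circles NC, squares NSUN2-KO), with the mean and SD of 3 libraries beside the points and each vertical axis from 0. The groups of every gene are apart, by little for Nfkbia and by more for Irak3 and Nfkbie.

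The TRAF, RIP kinase and cIAP layer holds the ubiquitin ligases and scaffolds on which the kinases assemble. By limma 0 of its 8 genes passed the test. An unadjusted p below 0.05 was found for 2, beside 1116 higher and 1293 lower of all 9443 genes tested. Voom called Ripk2, among 1372 genes in the whole table, and 6 of the 8 had a positive log2 fold change. Ripk2 (chr4:16122733-16163647, minus strand), the kinase that joins NOD receptors to TAK1, had the largest log2 fold change of all 39 genes and missed the threshold narrowly. It stood at 30.7, 26.3 and 27.1 FPKM in NC and at 31.9, 35.3 and 33.3 in NSUN2-KO. The first NC library was nearest to the NSUN2-KO values, and the groups were apart by 31.9 against 30.7. The log2 fold change was 0.25 ± 0.06 (SE, adjusted p = 0.0504). Without NC replicate 1 it was called (adjusted p = 0.0193), as it was in 5 other settings, among them voom (adjusted p = 0.00365), protein-coding genes only (0.0202) and a mean of at least 5 FPKM (0.0267).

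Birc3, which encodes the ubiquitin ligase cIAP2, was the most abundant gene of the layer. It stood at 38.2, 37.0 and 38.1 FPKM in NC and at 37.9, 37.8 and 38.9 in NSUN2-KO, so the groups overlapped, with a log2 fold change of 0.02 (95% interval -0.06 to 0.09). Ripk1, the scaffold kinase of the TNF receptor complex, and Traf1, itself an NF-kB-induced gene, had groups that did not overlap, both higher in NSUN2-KO, with log2 fold changes of 0.10 (adjusted p = 0.150) and 0.07 (adjusted p = 0.236). Birc2, which encodes cIAP1, had 0.11. Traf6, the ligase used by the MyD88 arm, had -0.02, Traf2, used by TNF receptors, had -0.03, and Traf3, used by TRIF and by CD40, had 0.04.

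Of the 9 TAK1, IKK and related kinase genes, limma and voom each called 0. By limma 2 (Tbk1 and Tab1) had an unadjusted p below 0.05, beside 1116 higher and 1293 lower of all 9443 genes tested. Ikbkb, which encodes the catalytic subunit IKK-beta, stood at 4.13, 3.85 and 3.92 FPKM in NC and at 3.75, 3.64 and 3.83 in NSUN2-KO. All NSUN2-KO values were below the NC values, by little (log2 fold change -0.07, adjusted p = 0.470). Ikbkg, the X-linked gene of the scaffold subunit NEMO, stood at 10.03, 9.66 and 9.22 FPKM in NC and at 9.95, 10.2 and 10.1 in NSUN2-KO, with overlapping groups (log2 fold change 0.06, adjusted p = 0.467).

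Tbk1, the IKK-related kinase that phosphorylates IRF3, was the most abundant kinase of the layer. It stood at 70.3, 68.7 and 69.7 FPKM in NC and at 72.1, 77.6 and 75.4 in NSUN2-KO. All NSUN2-KO libraries were above all NC libraries, yet the difference did not pass the test (log2 fold change 0.11 ± 0.04 SE, adjusted p = 0.104). Tab1 was lower in every NSUN2-KO library (3.54 ± 0.12 against 3.11 ± 0.16 FPKM, log2 fold change -0.14, adjusted p = 0.167). The groups overlapped for the other 6 genes of the layer. Map3k7, which encodes TAK1, had a log2 fold change of 0.04, its partner Tab2 had -0.03, and Chuk, which encodes IKK-alpha, had 0.06. Ikbke, the inducible relative of Tbk1, had -0.04, and Map3k8, the kinase TPL2 that leads to ERK, had -0.03.

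Among the Rel proteins, RelA, c-Rel and RelB carry the activation domain, while Nfkb1 and Nfkb2 encode the precursors of p50 and p52. Limma called 0 of the 5 genes, and voom called Nfkb1. By limma 3 had an unadjusted p below 0.05, beside 1116 higher and 1293 lower of all 9443 genes tested. Rela was the flattest, at 50.5, 52.2 and 50.2 FPKM in NC and 50.3, 52.1 and 50.2 in NSUN2-KO. Its log2 fold change was -0.0029 with a 95% interval of -0.08 to 0.07.

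Nfkb1 stood at 15.3, 15.5 and 15.7 FPKM in NC and at 16.9, 16.5 and 17.3 in NSUN2-KO. The groups did not overlap, and the log2 fold change was 0.12 ± 0.04 (SE, adjusted p = 0.0966). Rel, which encodes c-Rel, lay likewise higher in each NSUN2-KO library (11.8 ± 0.61 against 13.0 ± 0.27 FPKM, log2 fold change 0.13, adjusted p = 0.144). The genes of the alternative pathway, Nfkb2 and Relb, had values of the other sign. Nfkb2 stood at 45.1 ± 2.2 FPKM in NC and 42.0 ± 1.5 in NSUN2-KO (log2 fold change -0.10, adjusted p = 0.204), and Relb at 10.8 ± 0.57 and 9.57 ± 0.78 (log2 fold change -0.16, adjusted p = 0.177). In both genes the groups overlapped. The summed FPKM of the 5 Rel genes was 134 ± 2.9 in NC and 132 ± 1.3 in NSUN2-KO.

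The IkB proteins gave 2 of the 3 calls, in opposite directions. Nfkbia, Nfkbib and Nfkbie encode the classical inhibitors IkB-alpha, IkB-beta and IkB-epsilon, which hold Rel dimers in the cytoplasm. Nfkbiz, Nfkbid and Bcl3 encode nuclear IkB proteins, which act on promoter-bound p50 or p52, and the product of Nfkbiz, IkB-zeta, is needed for secondary response genes such as Il6 in macrophages.

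Nfkbie (chr17:45555703-45563169, plus strand) stood at 41.0, 41.2 and 42.0 FPKM in NC and at 34.9, 35.9 and 35.4 in NSUN2-KO. All NSUN2-KO libraries were below all NC libraries, and the gap between the groups was several times the spread within either. The means were 41.4 ± 0.55 and 35.4 ± 0.52 FPKM, and the gene fell by 0.22 ± 0.03 on the log2 scale (SE, adjusted p = 0.00659). It was called when each library was left out in turn.

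Nfkbiz (chr16:55811375-55838899, minus strand) stood at 10.02, 10.3 and 9.90 FPKM in NC and at 11.9, 10.97 and 11.9 in NSUN2-KO. The groups did not overlap, and the second NSUN2-KO library was nearest to NC. The means were 10.1 ± 0.21 and 11.6 ± 0.53 FPKM, a log2 fold change of 0.18 ± 0.05 (SE, adjusted p = 0.0485). The call was close to the threshold and was lost when any library other than NSUN2-KO replicate 2 was left out. The adjusted p was then 0.0987, 0.0965 and 0.156 with NC replicates 1, 2 and 3 left out in turn, and 0.160 and 0.115 with NSUN2-KO replicates 1 and 3. It was also lost with no filter (0.118), with no mean-variance trend (0.0733) and on the TPM scale (0.0881).

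Nfkbia (chr12:55489410-55492647, minus strand), the most abundant gene of the whole chain, stood at 169, 180 and 176 FPKM in NC and at 190, 187 and 182 in NSUN2-KO. The groups were apart by 182 against 180, and the log2 fold change of 0.09 ± 0.04 (SE) did not pass the test (adjusted p = 0.157). Nfkbib had a log2 fold change of -0.00039 (95% interval -0.14 to 0.14), Nfkbid had -0.05 and Bcl3 had -0.05, all with overlapping groups. The summed FPKM of the 3 classical IkB genes was 249 ± 8.6 in NC and 254 ± 3.0 in NSUN2-KO.

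The promoters of 4 members are shown to let their letters be read beside these values: Nfkbie and Irak3 as the changed genes with a window in the table used, Nfkbia as the neighbour of Nfkbie in function, and Rel as a feedback target. Each run is the RefSeq window of GRCm38.p6 from 250 bases before to 50 bases after an annotated start, written on the strand of the gene. Capitals mark matches to the kappa B consensus, a 10-base motif of GGG, a purine, any base, A or T, a pair of pyrimidines and CC, searched on both strands. The windows are, in this order, chr17:45555450-45555749, chr12:55492598-55492897, chr11:23770920-23771219 and chr10:120202081-120202380.
Nfkbie: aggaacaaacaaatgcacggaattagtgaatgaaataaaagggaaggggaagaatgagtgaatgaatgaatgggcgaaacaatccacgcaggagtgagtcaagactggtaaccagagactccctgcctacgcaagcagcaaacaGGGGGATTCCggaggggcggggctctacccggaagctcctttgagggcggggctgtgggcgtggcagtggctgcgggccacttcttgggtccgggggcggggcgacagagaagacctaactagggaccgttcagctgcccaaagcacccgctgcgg
Nfkbia: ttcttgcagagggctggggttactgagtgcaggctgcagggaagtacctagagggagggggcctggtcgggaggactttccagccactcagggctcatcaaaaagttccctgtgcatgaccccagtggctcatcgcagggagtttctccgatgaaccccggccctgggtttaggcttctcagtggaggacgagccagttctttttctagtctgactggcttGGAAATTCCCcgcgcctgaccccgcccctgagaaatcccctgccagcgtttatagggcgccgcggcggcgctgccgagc
Rel: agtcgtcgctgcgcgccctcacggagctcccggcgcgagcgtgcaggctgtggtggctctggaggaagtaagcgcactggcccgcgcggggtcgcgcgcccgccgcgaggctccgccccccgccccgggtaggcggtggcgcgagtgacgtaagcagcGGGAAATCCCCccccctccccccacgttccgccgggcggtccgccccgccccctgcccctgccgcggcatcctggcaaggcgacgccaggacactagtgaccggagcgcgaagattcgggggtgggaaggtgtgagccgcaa
Irak3: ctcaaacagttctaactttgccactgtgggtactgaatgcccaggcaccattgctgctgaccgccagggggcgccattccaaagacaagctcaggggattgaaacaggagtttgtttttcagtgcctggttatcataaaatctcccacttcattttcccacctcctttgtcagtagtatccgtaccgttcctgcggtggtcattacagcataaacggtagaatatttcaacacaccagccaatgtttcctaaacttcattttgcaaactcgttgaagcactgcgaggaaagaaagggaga

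Nfkbie has a match of GGGGGATTCC that begins at position -106 from the start site, and Nfkbia has GGAAATTCCC at position -29. The Rel window holds GGGAAATCCC at position -92 with an overlapping match a base further on, and the Irak3 window holds none. Over the chain, 31 genes had a window and 11 of them (35.5%) held a match: Bcl3, Cyld, Map3k7, Nfkb2, Nfkbia, Nfkbid, Nfkbie, Rel, Tnfaip3, Tnip1 and Traf3. Of all 27025 genes with a window, 5.14% held one. A match describes letters and is not a binding site, and both the gene that fell and genes with positive log2 fold changes held one.

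The ubiquitin-editing genes close the feedback. Limma called 0 of the 3, with 1 at an unadjusted p below 0.05, beside 1116 higher and 1293 lower of all 9443 genes tested. Voom called Cyld, among 1372 genes in the whole table. Tnfaip3, which encodes A20, stood at 24.6, 24.5 and 23.1 FPKM in NC and at 26.1, 24.4 and 27.0 in NSUN2-KO. The second NSUN2-KO library lay within the NC range, and the log2 fold change was 0.10 ± 0.05 (SE, adjusted p = 0.239). Its partner Tnip1, which encodes ABIN1, was the most abundant of the layer, at 54.4, 61.3 and 55.5 FPKM in NC and 63.5, 61.0 and 58.9 in NSUN2-KO. The groups overlapped (log2 fold change 0.10, adjusted p = 0.278). Cyld, a deubiquitinase that removes the chains NEMO binds, stood at 10.2, 9.59 and 9.90 FPKM in NC and at 11.1, 11.1 and 10.4 in NSUN2-KO. Its groups did not overlap, and the difference did not pass the test (log2 fold change 0.12, adjusted p = 0.136).

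Related genes whose log2 fold changes had opposite signs stood in other proportions in the groups. The 4 ratios below were chosen after the values were seen, for those opposite signs, so that their direction was set by the choice, and they are a description with no test. The ratio of Nfkbia to Nfkbie FPKM was 4.11, 4.37 and 4.20 in the NC libraries and 5.46, 5.22 and 5.12 in the NSUN2-KO libraries (4.23 ± 0.13 against 5.27 ± 0.17). The ratio of Nfkb1 to Nfkb2 was 0.344 ± 0.015 in NC and 0.403 ± 0.013 in NSUN2-KO, and that of Rel to Relb was 1.10 ± 0.10 and 1.36 ± 0.13. The ratio of Irak3 to Irak4 was 2.96 ± 0.018 in NC and 4.17 ± 0.36 in NSUN2-KO. The Rel and Nfkb1 pairs also differ in GC content (42.5% for Rel and 59.1% for Relb, 51.0% for Nfkb1 and 59.1% for Nfkb2). The other pairs differ less (54.2% for Nfkbia and 55.7% for Nfkbie, 49.2% for Irak3 and 49.8% for Irak4). With the GC and length trend removed, the log2 fold changes of Rel and Relb drew closer, to 0.06 and -0.07. Those of Nfkb1 and Nfkb2 drew closer too, to 0.13 and -0.01. The other pairs moved less. Nfkbia and Nfkbie went from 0.09 and -0.22 to 0.12 and -0.16. Irak3 and Irak4 went from 0.24 and -0.21 to 0.24 and -0.20. The summed FPKM of the 39 genes was 993 ± 12 in NC and 1018 ± 5.4 in NSUN2-KO.

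**Figure D3:**
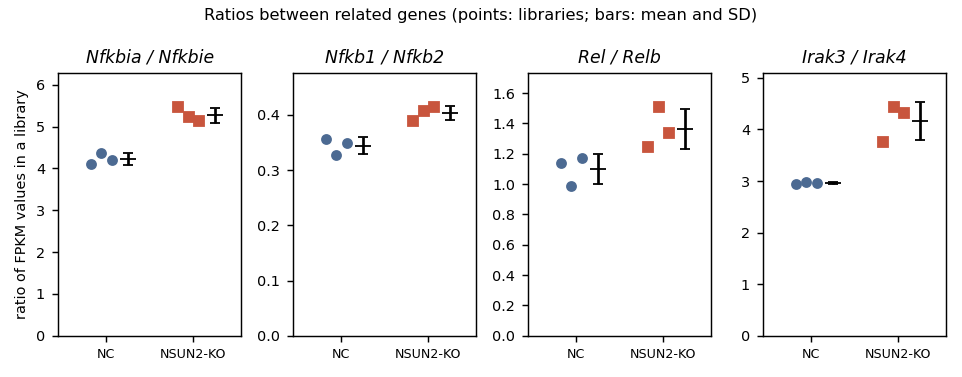
Ratio of the FPKM values of a pair of related genes in each library (circles NC, squares NSUN2-KO), with the mean and SD of 3 libraries beside the points and each vertical axis from 0. The pairs were chosen for a higher ratio in NSUN2-KO, and the panels show its size, for example 5.12 to 5.46 against 4.11 to 4.37 for Nfkbia over Nfkbie, before any removal of the GC trend.

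The chain was also divided by whether NF-kB is known to induce the gene. This division was drawn up with earlier results of these data known, so its shares describe the chosen genes only. The induced list had 18 members: Nfkb1, Nfkb2, Rel, Relb, Nfkbia, Nfkbie, Nfkbiz, Nfkbid, Bcl3, Tnfaip3, Tnip1, Birc3, Traf1, Irak2, Irak3, Map3k8, Ripk2 and Ikbke. All 3 calls were on it (16.7% of its members, beside 8.49% of all genes tested). Of the 18, 11 had a positive and 7 a negative log2 fold change, with a median of 0.08. Of the other 21 genes, 9 were positive and 12 negative, with a median of -0.0029, and limma called 0. By limma 6 had an unadjusted p below 0.05, beside 1116 higher and 1293 lower of all 9443 genes tested. Voom called Cyld higher and Irak4 lower, among 1372 genes in the whole table. Groups that did not overlap numbered 8 higher and 1 lower on the induced list, and 3 higher and 4 lower among the rest, beside 14.4% higher and 16.7% lower over all genes tested. The share of promoter windows with a kappa B match was 8 of 13 (61.5%) on the induced list and 3 of 18 (16.7%) among the rest. No test was made between the 18 and the 21.

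The fold changes of the members moved with the base composition of their transcripts. Over the 39 genes the Spearman correlation of GC content with the log2 fold change was -0.53 (Pearson -0.49), and over 9433 tested genes with a GC value it was -0.39. These are descriptions across genes that share the same 6 libraries. Of the 11 members with a GC content of at least 55%, 10 had a negative log2 fold change (median -0.06), Nfkbie, Relb, Nfkb2 and Tab1 among them. Of the 18 members below 50%, 14 had a positive one (median 0.08), Irak3, Nfkbiz, Ripk2 and Rel among them.

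When the dependence on GC content and gene length was taken out of each library by a loess fit, 7 members were higher and 1 was lower, beside 8.62% of 9433 genes called in all (4.58% higher, 4.04% lower). The 7 were Irak2 (log2 fold change 0.17, adjusted p = 0.0231), Irak3 (0.24, 0.00245), Ripk2 (0.24, 0.0485), Nfkb1 (0.13, 0.0373), Nfkbia (0.12, 0.0247), Nfkbiz (0.19, 0.0347) and Tnip1 (0.18, 0.0370). The gene that stayed lower was Nfkbie (-0.16, adjusted p = 0.0190). All 8 were on the induced list, which was drawn up with earlier results of these data known. Limma called 0 of the other 21 genes, of which 3 had an unadjusted p below 0.05 in that fit. The value of Rela moved to 0.08. Irak3, Nfkbiz and Nfkbie were thus called with and without the trend, while Irak2, Ripk2, Nfkb1, Nfkbia and Tnip1 were called only after its removal in these 2 fits. With the replicate block added to this setting, 2 members were higher (Irak2 and Irak3) and 0 were lower. Leaving out libraries was not combined with this setting, and the cause of the GC trend was not tested.

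**Figure D4:**
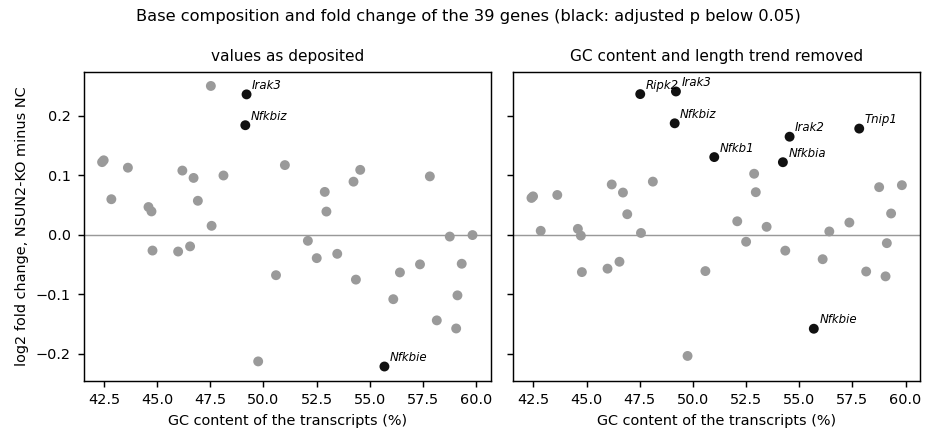
Log2 fold change (NSUN2-KO minus NC) of the 39 genes against the GC content of their transcripts in percent, with the values as deposited on the left and with the GC and length trend removed on the right, and black points for adjusted p below 0.05. On the left the points slope down from low to high GC content (Spearman -0.53), and on the right 8 genes are black against 3 on the left.

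Genes around the chain were read from 3 further lists. The first held 44 other pathway genes (further TRAF, linear-ubiquitin, Pellino, TANK-binding and BCL10-MALT1 components and other regulators), of which 39 were tested. Of these 1 rose and 1 fell (5.13%, beside 8.49% of all genes tested), and the median log2 fold change was -0.02. Malt1, the paracaspase that cleaves A20, rose from 5.93 ± 0.19 to 8.21 ± 0.56 FPKM (log2 fold change 0.41, adjusted p = 0.00629). Sharpin, a subunit of the linear ubiquitin ligase, fell from 11.6 ± 0.31 to 10.2 ± 0.17 FPKM (log2 fold change -0.18, adjusted p = 0.0373). The Sharpin call was lost without any single library, with adjusted p of 0.0523, 0.106 and 0.143 when NC replicates 1, 2 and 3 were left out in turn, and of 0.112, 0.0698 and 0.0897 for those of NSUN2-KO. It was also lost with the GC trend removed (0.116).

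Of 22 receptors that feed the chain 18 were tested, and 4 rose and 1 fell (27.8%, beside 8.49% of all genes tested). Cd14, which hands LPS to TLR4, rose from 206 ± 3.3 to 251 ± 1.9 FPKM (log2 fold change 0.29, adjusted p = 0.00113), and it was called when each library was left out in turn. The RNA receptors Tlr3 (12.7 ± 1.0 to 16.6 ± 1.0 FPKM, adjusted p = 0.0175) and Tlr7 (35.1 ± 1.1 to 39.9 ± 1.8, 0.0448) rose, as did the costimulatory receptor Cd40 (80.3 ± 0.66 to 90.4 ± 2.9, 0.0225). Tlr7 lies on the X chromosome, and the groups differed in Xist and in Y-linked genes. The DNA receptor Tlr9 fell from 69.3 ± 4.5 to 58.0 ± 2.1 FPKM (adjusted p = 0.0243). The number of receptors called was 3, 1 and 2 when NC replicates 1, 2 and 3 were left out in turn, and 1, 1 and 5 for those of NSUN2-KO. Tlr3 was not called without NC replicate 2 or 3 or NSUN2-KO replicate 1 or 2 (adjusted p from 0.0572 to 0.0722), and Tlr9 not without NC replicate 2 or NSUN2-KO replicate 1 or 2 (0.0502 to 0.0705). Cd40 (0.0525 to 0.0973) and Tlr7 (0.0560 to 0.143) were not called when any library other than NSUN2-KO replicate 3 was left out. With the GC trend removed the log2 fold change of Tlr7 went from 0.18 to 0.12 and was not called (adjusted p = 0.0965). With no filter Cd14 was the only receptor called, and with no mean-variance trend Tlr7, Tlr9 and Cd40 were not called (adjusted p = 0.0913, 0.0586 and 0.0688), nor were Tlr7 and Tlr9 on the TPM scale (0.0603 and 0.0567). Tlr4, the LPS receptor, was at 23.1 ± 1.0 and 23.3 ± 0.23 FPKM, with overlapping groups.

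Genes listed as NF-kB targets in macrophages showed larger log2 fold changes. Of 40 NF-kB target genes 37 were tested, and limma found that 19 (51.4%, beside 4.19% of all genes tested) rose and 0 fell. Lower were 2 at an unadjusted p below 0.05, beside 1293 of all 9443 genes tested, and 1 by voom. The list was chosen with earlier results of these data known. Its share describes the chosen genes and cannot stand for NF-kB targets in general. The median log2 fold change of the 37 was 0.19. Only 11 rose without NSUN2-KO replicate 1, and 13 to 18 without each of the others. Il1b, the precursor of IL-1 beta, went from 51.8 ± 2.0 to 85.2 ± 1.6 FPKM, Il6 from 4.37 ± 0.33 to 9.34 ± 1.3, and Il12b from 5.28 ± 0.25 to 9.37 ± 0.61. Ptgs2, the inducible cyclooxygenase, went from 241 ± 10 to 359 ± 17 FPKM, Ccl3 from 67.7 ± 0.63 to 110 ± 12, and Cxcl1 from 0.775 ± 0.18 to 2.25 ± 0.32. The log2 fold changes of these 6 ran from 0.57 (Ptgs2) to 0.94 (Il6), above the largest value in the chain, 0.25 for Ripk2. The difference between the lists was not tested, and other factors than NF-kB also act on these genes. With the GC trend removed, 20 targets were higher and 0 lower (1 lower at an unadjusted p below 0.05). Within this list the GC dependence remained in part. The Spearman correlation of GC content with the log2 fold change was -0.62 over the 37 targets and -0.45 after the removal. Over all tested genes it went from -0.39 to -0.026. The cause was not tested.

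**Figure D5:**
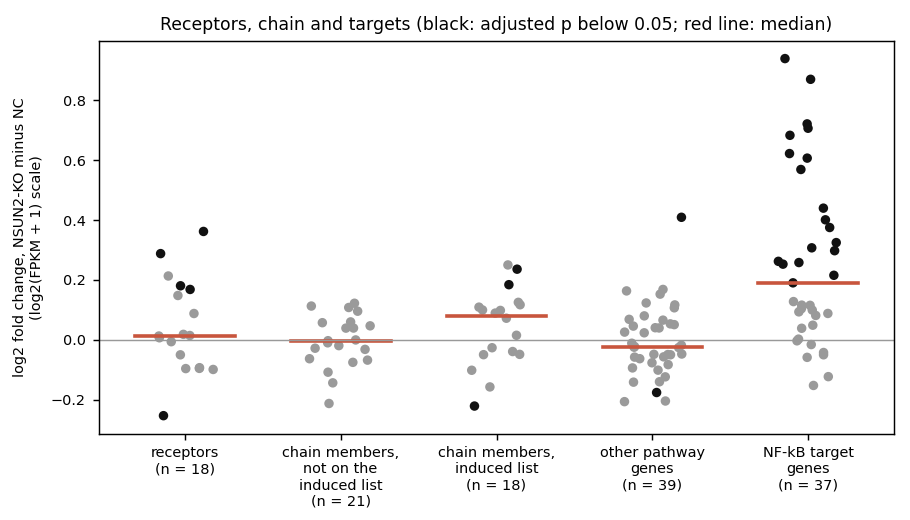
Log2 fold change (NSUN2-KO minus NC, on the log2(FPKM + 1) scale) of each tested gene in 5 lists: receptors, chain members off and on the induced list, other pathway genes, and NF-kB target genes, with black points for adjusted p below 0.05 and a line at the median. The target list has a median of 0.19 and reaches 0.94, while all 39 chain members lie between -0.22 and 0.25.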

How the data were processed

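The authors deposited FPKM values (reads scaled by gene length and library total), with the lengths they used, for 6 libraries of total RNA made with a commercial kit, per the labels' protocols. The tools listed were HISAT2 2.0.5 and featureCounts 1.5.0-p3, with CASAVA 1.8, fastp and DESeq2 1.20.0 beside them and GRCm38 (mm10) as the build, per the submitters' processing notes. No settings, strand use included, are stated there. The design text gives 3 biological replicates per group and elsewhere a smaller number.

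FPKM times length gave whole reads for 100% of values above 0 (tolerance 0.01 reads), which were used for depth and for voom. Voom on them called 1372 genes. As no molecular identifiers were used, depth covers counting error only. No columns were left unassigned, and no libraries were duplicates.

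The main test was limma 3.58.1 in R 4.3.3 with a mean-variance trend, on log2(FPKM + 1) of genes averaging 1 FPKM or more, 3 NSUN2-KO against 3 NC libraries, and p-values were adjusted by Benjamini-Hochberg over 9443 genes. Log2 fold changes are NSUN2-KO minus NC on that scale, which understates changes of low genes. The test was checked on reads simulated with the same relative spread for every gene. It recovered 59.6% of changes of 1.25-fold, 91.8% of 1.5-fold and 100% of 2-fold, and 4% of its calls were false. All differences between group means in the chain were smaller than 1.25-fold (84.8% to 119% of NC), so real changes of that size can be missed. GC content came from GENCODE vM21 transcripts, and promoter windows from RefSeq (GRCm38.p6), where 31 of the 39 genes had one. Python 3.11.15, pandas 2.3.3 and matplotlib 3.10.9 were used for joins and plots.

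The members and the lists were chosen with earlier results of these data known. The 39 genes are all named. Values per library are given for changed genes, for the most abundant gene and the gene with the smallest p of each layer, and for Nfkbia, Tnfaip3, Rela, Myd88, Ikbkb and Ikbkg, and Irak4 was added after its values were seen. Of the 3 further lists, up to 6 changed genes by smallest p were named, and Tlr4 was added after its values were seen. Alternatives were other pseudocounts, filters and scalings, no trend, voom, the replicate block, removal of the GC and length dependence by loess (span 0.5), protein-coding genes only, and leaving out each library.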

Additional observations from a re-analysis of the deposited data

How the results depend on the processing

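Of the 39 genes, 30 kept the sign of their log2 fold change under each of the 18 alternatives in which they were tested (Tab1 and Ikbkb were below the filter of 5 FPKM), and scaling moved the median of all genes by little (0.0054 on the TPM scale, -0.0056 as deposited). The number of members higher (2) was 7 with the GC trend removed, 2 of which (Irak2 and Irak3) were called when the replicate block was added, 5 by voom, and 1 with no filter, with no mean-variance trend, with the replicate block or on the TPM scale, and 1 to 2 without single libraries. The number lower (1) was 2 by voom, 0 with the replicate block and the GC trend removed together, and 1 to 2 without single libraries. The whole table (802) gave 1372 by voom, 265 with no filter, 526 with no trend, 351 with the replicate block, 471 with the block and the GC trend removed, and 270 to 595 without single libraries. Other pathway genes (2) gave 4 by voom, 1 with no filter, no trend, the replicate block with or without the GC trend, or TPM, and 1 without any single library. Receptors (5) gave 1 with no filter, 2 with no trend or the replicate block, 3 on the TPM scale, and 1 to 5 without single libraries. Targets (19) gave 9 with no filter and 11 to 18 without single libraries. With the replicate block Nfkbiz was not called (adjusted p = 0.125, and 0.103 with the GC trend removed too). The block with GC removal also ended the calls of Ripk2, Nfkb1, Nfkbia and Tnip1 made by GC removal alone (adjusted p = 0.124, 0.110, 0.0805 and 0.0525), and Nfkbie lost its call with the block and GC removal together (0.0739). Replicate numbers showed no pairing over the whole table: deviations of same-numbered libraries correlated at -0.0095, -0.030 and 0.0034, and no library correlated best with its own number. Such small values cannot show that samples were not handled in pairs. The cause of these moves was not tested, except that no filter adds genes to the adjustment and leaving out a library removes samples.

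Signs turned for 9 genes, all uncalled with an adjusted p of at least 0.173 there. With the GC trend removed, with or without the replicate block, they were Tirap (0.0228), Ticam1 (0.0057), Traf2 (0.0135), Map3k7 (-0.0014), Rela (0.0802), Nfkbib (0.0835), Nfkbid (0.0207) and Bcl3 (0.0359). On the TPM scale they were Rela (0.0064) and Nfkbib (0.0090). Without single libraries the log2 fold change ran from -0.0277 to 0.0177 for Tirap, -0.0659 to 0.0065 for Traf2, -0.0432 to 0.0139 for Traf6, -0.0058 to 0.0702 for Map3k7, -0.0206 to 0.0142 for Rela, -0.0676 to 0.0337 for Nfkbib and -0.117 to 0.0109 for Nfkbid. Each member had at least 369 reads in every library, and the 3 libraries a group limit the precision.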
